A study of Mus musculus with 6 samples.

Results

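Gt(ROSA)26Sor, the noncoding transcript of the Rosa26 locus, and its neighbours Thumpd3 and Setd5 were followed in single bone marrow colonies that either expressed the Rosa26 reporter or did not. These 3 genes are rows, chosen by name, of a table of 14735 measured genes. They were chosen with the difference between the groups already known, so their levels and differences are a description and carry no test. The comparison set 3 colonies against 3, tdTOMATO+ CFU-Fs and tdTOMATO- CFU-Fs. A CFU-F (colony-forming unit, fibroblastic) is a colony that a plated stromal progenitor founds. Every colony came from Col10a1Cre; Rosa26fs-tdTomato mice on C57BL/6, aged 2 months, so both groups share the Cre and reporter genotype as labelled. Marrow cells of the hind limbs were plated at clonal density in low oxygen, and at day 10 all RNA inside a cloning cylinder was taken and sequenced in single-end reads.

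Several features limit the groups as a model. Cre is driven by Col10a1, a collagen gene of hypertrophic chondrocytes, so the reporter marks past or present Cre activity and not a current state. The colony was called by its fluorescence, and a cylinder holds every cell that lay inside it. The number of reporter alleles per mouse, and which mouse gave each colony, are not given in the sources used here. The spread between colonies may thus be partly technical or shared within an animal.

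Rosa26 was found by a gene trap in mouse embryonic stem cells and became the usual site for knock-in alleles because it is transcribed in nearly all tissues and tolerates insertion. Its transcript, Gt(ROSA)26Sor, codes for no known protein. In reporter alleles of this type, a stop cassette flanked by loxP sites lies before tdTomato, and Cre removes it for good in the cell and its descendants. The usual insertion point is the first intron of Gt(ROSA)26Sor. Thumpd3 encodes a THUMP-domain tRNA methyltransferase that, in human cells, works with TRMT112. Setd5 encodes a SET-domain protein of chromatin regulation that binds the NCoR/HDAC3 and PAF1 complexes, and loss of 1 copy of the human gene causes intellectual disability.

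The 3 genes lie side by side on chromosome 6 (GRCm38, GENCODE M21 annotation). Gt(ROSA)26Sor (ENSMUSG00000086429) spans chr6:113067428-113077333 on the minus strand, and the annotation classes it as antisense. Thumpd3 (ENSMUSG00000030264) spans chr6:113046225-113068273 on the plus strand. Setd5 (ENSMUSG00000034269) spans chr6:113077365-113153435 on the plus strand. Gt(ROSA)26Sor and Setd5 are head to head, with 31 bases between their annotated starts and 0 shared exonic bases. Gt(ROSA)26Sor and Thumpd3 are tail to tail, and their spans share 846 bases. The exonic overlap is 145 bases, which is 8.55% of the exonic bases of Gt(ROSA)26Sor and 2.21% of those of Thumpd3. No strand setting for the counting is given in the sources used here, so reads from that overlap could not be assigned to either gene.

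Gt(ROSA)26Sor has 4 annotated transcripts, which all join a first exon to a second exon with the same splice acceptor. They are shown because the junction frames the first intron, into which reporters are usually placed. That intron runs from 113071436 to 113077067 (5632 bases) in 2 transcripts and from 113071436 to 113077173 (5738 bases) in the other 2. The sequences below are from GENCODE M21, read 5′ to 3′ on the minus strand. Lower case is exon 1, and capitals are the first 30 bases of exon 2 (chr6:113071406-113071435).
Gt(ROSA)26Sor-201: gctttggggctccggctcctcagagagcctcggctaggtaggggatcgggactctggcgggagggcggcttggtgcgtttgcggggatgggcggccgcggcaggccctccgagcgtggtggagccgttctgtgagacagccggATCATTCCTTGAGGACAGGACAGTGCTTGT
Gt(ROSA)26Sor-202: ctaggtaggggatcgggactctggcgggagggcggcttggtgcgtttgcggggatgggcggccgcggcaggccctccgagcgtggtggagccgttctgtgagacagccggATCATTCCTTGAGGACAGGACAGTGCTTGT
Gt(ROSA)26Sor-203: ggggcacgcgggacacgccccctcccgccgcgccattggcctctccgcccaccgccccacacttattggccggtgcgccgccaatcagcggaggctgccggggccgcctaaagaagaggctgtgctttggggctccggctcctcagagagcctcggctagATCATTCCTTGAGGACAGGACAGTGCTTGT
Gt(ROSA)26Sor-204: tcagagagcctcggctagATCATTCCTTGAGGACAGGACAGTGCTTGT

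The first exons are rich in G and C, at 71.3%, 71.8%, 71.9% and 61.1% in the order shown. The 160-base first exon of Gt(ROSA)26Sor-203 starts farthest upstream (chr6:113077174-113077333). It holds the CCAAT motif 1 time and its reverse complement ATTGG 2 times, and the other 3 first exons hold neither. Of 32851 RefSeq promoter windows, 21.5% hold 1 or more of these motifs on either strand in their first 160 bases, and 0.703% hold 3 or more. Those bases were not matched to exon 1 in position relative to the transcript start, so the shares are no background for the exon. The matches describe the letters of the annotated exon and were not tested for binding. The table counts reads per gene, so the level of each transcript was not measured.

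The libraries held 24085516 to 31046589 reads in genes, recovered from the steps of the values. Values are normalized read counts, meaning reads divided by a size factor of the library. Marrow stroma genes were measured in every colony, with Col1a1 at 484865 to 664883 in tdTOMATO+ colonies and 592416 to 726469 in tdTOMATO- colonies. Endothelial markers were low, with a summed level over 7 genes of 218 to 244 in tdTOMATO+ colonies and 141 to 234 in tdTOMATO- colonies. Of the endothelial markers, Pecam1 and Tie1 were at 0 in at least 1 library. Macrophage and leukocyte markers were present in all 6 colonies and differed between the groups, as given further on.

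Gt(ROSA)26Sor was transcribed in all 6 colonies and was lower in the tdTOMATO+ CFU-Fs. It had 3765, 6266 and 4171 normalized counts in tdTOMATO+ replicates 1 to 3, against 9540, 7386 and 7695 in tdTOMATO- replicates 1 to 3. The groups did not overlap, although the highest tdTOMATO+ colony, replicate 2, lay closer to the lowest tdTOMATO- colony than to the other tdTOMATO+ colonies. Means were 4734 ± 1342 in tdTOMATO+ colonies and 8207 ± 1165 in tdTOMATO- colonies (SD, n = 3 each). The log2 difference, on log2 of the normalized count plus 1, was -0.82 with an SE of 0.20, or 43.4% lower. Over all genes, 8.33% were lower in tdTOMATO+ CFU-Fs with no overlap. In bulk RNA, fewer cells that transcribe the locus and less transcript per cell cannot be told apart. In recovered reads, 3652 to 7307 in tdTOMATO+ colonies and 7662 to 8332 in tdTOMATO- colonies stood behind these values.

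Thumpd3 was nearly even across the colonies. It had 509, 453 and 507 normalized counts in tdTOMATO+ replicates 1 to 3, against 442, 473 and 441 in tdTOMATO- replicates 1 to 3. The groups overlapped, because tdTOMATO+ replicate 2 lay below tdTOMATO- replicate 2. Means were 490 ± 32.1 in tdTOMATO+ colonies and 452 ± 18.4 in tdTOMATO- colonies (SD, n = 3 each), a log2 difference of 0.11 (SE 0.09). This difference moved to 0.032 when the libraries were scaled by reference genes.

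Setd5 overlapped between the groups. It had 5902, 5577 and 4669 normalized counts in tdTOMATO+ replicates 1 to 3, against 6719, 5367 and 5665 in tdTOMATO- replicates 1 to 3. The lowest colony was tdTOMATO+ replicate 3 and the highest tdTOMATO- replicate 1, with the other 4 between 5367 and 5902. Means were 5383 ± 639 in tdTOMATO+ colonies and 5917 ± 710 in tdTOMATO- colonies (SD, n = 3 each), a log2 difference of -0.14 within the spread of the colonies.

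**Figure D1:**
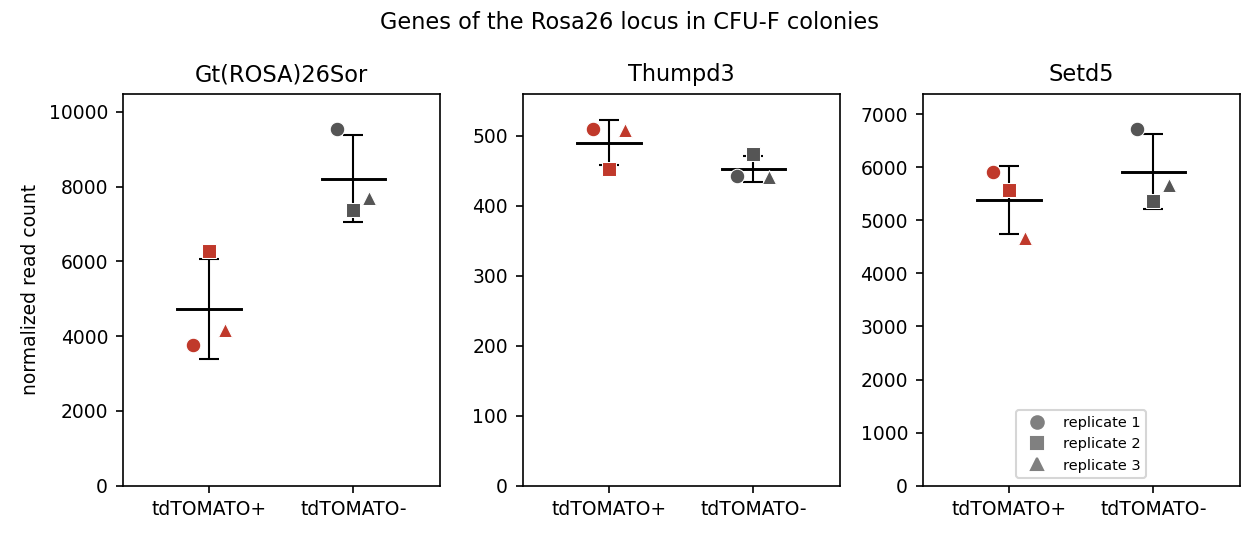
Normalized read counts of Gt(ROSA)26Sor, Thumpd3 and Setd5 in each colony, with tdTOMATO+ CFU-Fs left of tdTOMATO- CFU-Fs in each panel; symbols are replicates, horizontal lines are means and bars are SD (n = 3 each), and each y axis starts at 0. The tdTOMATO+ colonies sit at 3765 to 6266 and the tdTOMATO- colonies at 7386 to 9540 for Gt(ROSA)26Sor, while the groups overlap for Thumpd3 and Setd5.

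Read counts grow with transcript length, so levels were compared between the genes only per kilobase of exonic sequence. On that scale Gt(ROSA)26Sor stood highest, with a mean level of 2793 normalized counts per kilobase in tdTOMATO+ colonies and 4842 in tdTOMATO- colonies. Setd5 followed at a mean level of 293 in tdTOMATO+ colonies and 322 in tdTOMATO- colonies. Thumpd3 was lowest, at a mean level of 74.7 in tdTOMATO+ colonies and 69.0 in tdTOMATO- colonies. Each step of this order held in every colony.

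Relative to their lower mean, the tdTOMATO+ CFU-Fs also varied more among themselves in Gt(ROSA)26Sor. The coefficient of variation was 28.4% in tdTOMATO+ colonies and 14.2% in tdTOMATO- colonies, while the SDs were 1342 and 1165 normalized counts (n = 3 each). The within-group SD on the log2 scale was 0.31 for Gt(ROSA)26Sor, 0.17 for Setd5 and 0.079 for Thumpd3. Of the 1258 genes with a mean within 2-fold of that of Gt(ROSA)26Sor, 90 (7.15%) had a larger within-group SD, and the median was 0.10. Among these genes, 3 had a log2 difference at or below that of Gt(ROSA)26Sor, which describes the size of a difference used to choose the gene.

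Within each library, the ratio of Gt(ROSA)26Sor to its neighbours does not depend on the size factors. Gt(ROSA)26Sor over Setd5 was 0.638, 1.12 and 0.893 in tdTOMATO+ replicates 1 to 3, against 1.42, 1.38 and 1.36 in tdTOMATO- replicates 1 to 3. The groups did not overlap, and the coefficient of variation of this ratio was 27.4% over the tdTOMATO+ colonies, against 2.29% over the tdTOMATO- colonies. Means were 0.885 ± 0.243 in tdTOMATO+ colonies and 1.38 ± 0.0317 in tdTOMATO- colonies (SD, n = 3 each). Over the range of the 3 tdTOMATO+ colonies, the highest ratio was 1.76 times the lowest, and over the 3 tdTOMATO- colonies it was 1.05 times.

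Gt(ROSA)26Sor over Thumpd3 was 7.39, 13.8 and 8.22 in tdTOMATO+ replicates 1 to 3, against 21.6, 15.6 and 17.4 in tdTOMATO- replicates 1 to 3. Again the groups did not overlap, and tdTOMATO+ replicate 2 was the closest to the tdTOMATO- colonies. The coefficient of variation of the ratio over Thumpd3 was 35.7% in tdTOMATO+ colonies and 16.8% in tdTOMATO- colonies. The narrow spread of the tdTOMATO- colonies thus held for the ratio over Setd5 only. Setd5 over Thumpd3 was 11.6, 12.3 and 9.20 in tdTOMATO+ replicates 1 to 3, against 15.2, 11.3 and 12.8 in tdTOMATO- replicates 1 to 3, and here the groups overlapped. Gt(ROSA)26Sor made up 37.0%, 51.0% and 44.6% of the normalized counts of the 3 genes in tdTOMATO+ replicates 1 to 3. In tdTOMATO- replicates 1 to 3 it made up 57.1%, 55.8% and 55.8%. Against the mean of its neighbours on the log2 scale, Gt(ROSA)26Sor differed by -0.81, close to its own -0.82. The neighbours differed in opposite directions, and the log2 difference was -0.68 for the ratio over Setd5 and -0.94 for the ratio over Thumpd3.

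**Figure D2:**
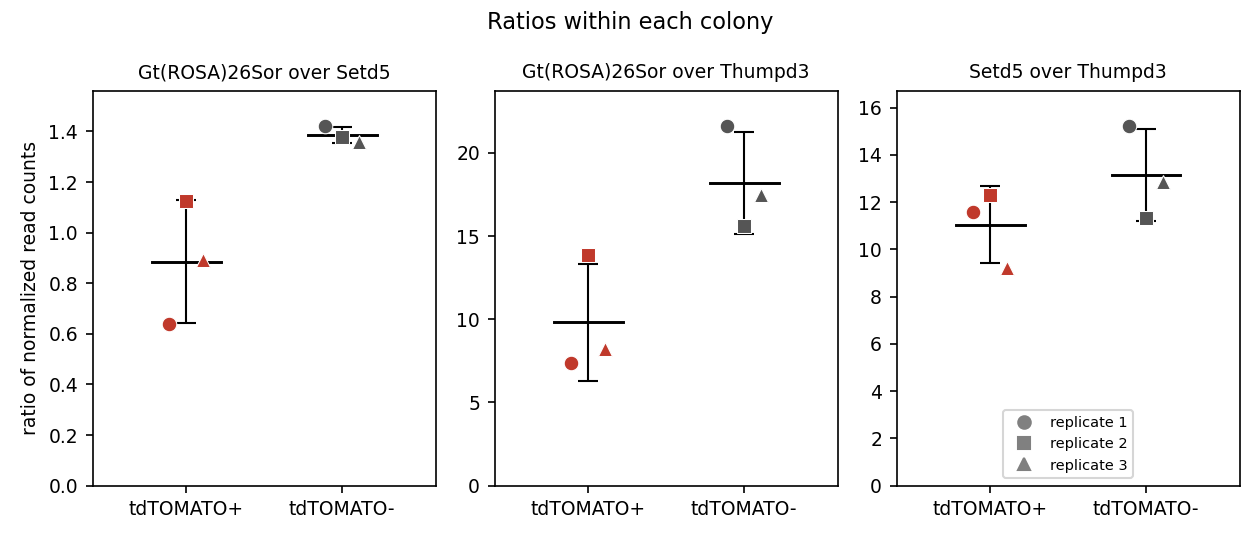
Ratio of normalized read counts within each colony for the 3 pairs of genes, with tdTOMATO+ CFU-Fs left of tdTOMATO- CFU-Fs; symbols are replicates, lines are means and bars are SD (n = 3 each). Gt(ROSA)26Sor over Setd5 lies between 0.638 and 1.12 in the tdTOMATO+ colonies and between 1.36 and 1.42 in the tdTOMATO- colonies, and Setd5 over Thumpd3 overlaps between the groups.

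The question of whether other genes around the reporter locus differed was addressed with the 20 nearest measured genes on each side, tested by limma over all 14735 genes. None of the 40 neighbours passed an adjusted p of 0.05, against 1.34% of all genes (177 genes or 1.2% higher and 21 genes or 0.143% lower in tdTOMATO+ CFU-Fs). At an unadjusted p under 0.05 there were 5 neighbours, against 12.3% of all genes. The lowest adjusted p among the neighbours was 0.310 in limma. The median log2 difference of the 40 was 0.02, beside -0.0046 over all genes, and 29 of the 40 were under 0.2 in size. The count over all genes rested on single colonies, and without tdTOMATO+ replicate 2 limma called 1 gene higher and 0 lower (835 and 458 at an unadjusted p under 0.05).

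On the side of Setd5, the 5 nearest measured genes had log2 differences of at most 0.08. These are Mtmr14, a phosphoinositide phosphatase (log2 difference 0.08), Brpf1, a scaffold of a histone acetyltransferase complex (0.07), and Ogg1, a DNA glycosylase that removes oxidized guanine (0.05). Next came Camk1, a calcium/calmodulin-dependent kinase (0.01), and Tada3, a subunit of acetyltransferase complexes (0.01). Their distances from the end of Gt(ROSA)26Sor ran up to 289 kb. In all 5 the groups overlapped.

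The side of Thumpd3 is poorer in measured genes. Srgap3, 120 kb away, had a log2 difference of 0.28. Rad18, a ubiquitin ligase of DNA damage tolerance, had -0.22. Gm15519, a processed pseudogene that may share reads with its parent gene, had at most 11.1 normalized counts in any colony. Edem1, which acts in the disposal of misfolded glycoproteins, had -0.09 and lay 4208 kb away.

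Lmcd1, which encodes a LIM-domain protein and lies 737 kb from Gt(ROSA)26Sor, had the lowest value of the 40 neighbours. It had 788, 349 and 404 normalized counts in tdTOMATO+ replicates 1 to 3, against 1755, 1595 and 721 in tdTOMATO- replicates 1 to 3. The groups overlapped, because tdTOMATO+ replicate 1 lay above tdTOMATO- replicate 3. The log2 difference of -1.39 (SE 0.46) did not pass the test (adjusted p 0.310, limma, n = 3 each). The other neighbours at an unadjusted p under 0.05 were Pdzrn3, Arpc4, Fancd2 and Hrh1, of log2 difference -0.49, 0.17, -0.40 and 1.22. Hrh1, 1321 kb away, was low, at 9.04 to 22.3 normalized counts in tdTOMATO+ colonies and 4.58 to 5.78 in tdTOMATO- colonies. Of the 40 neighbours, 5 (12.5%) did not overlap between the groups, 1 lower and 4 higher, against 18.2% of all genes (8.33% lower and 9.89% higher). Keeping only the 23 neighbours within 1000 kb, a choice made after seeing the data, left 0 called and 3 at an unadjusted p under 0.05 in limma. The shares over all genes were 1.34% and 12.3%, and the median of the 23 was 0.04.

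**Figure D3:**
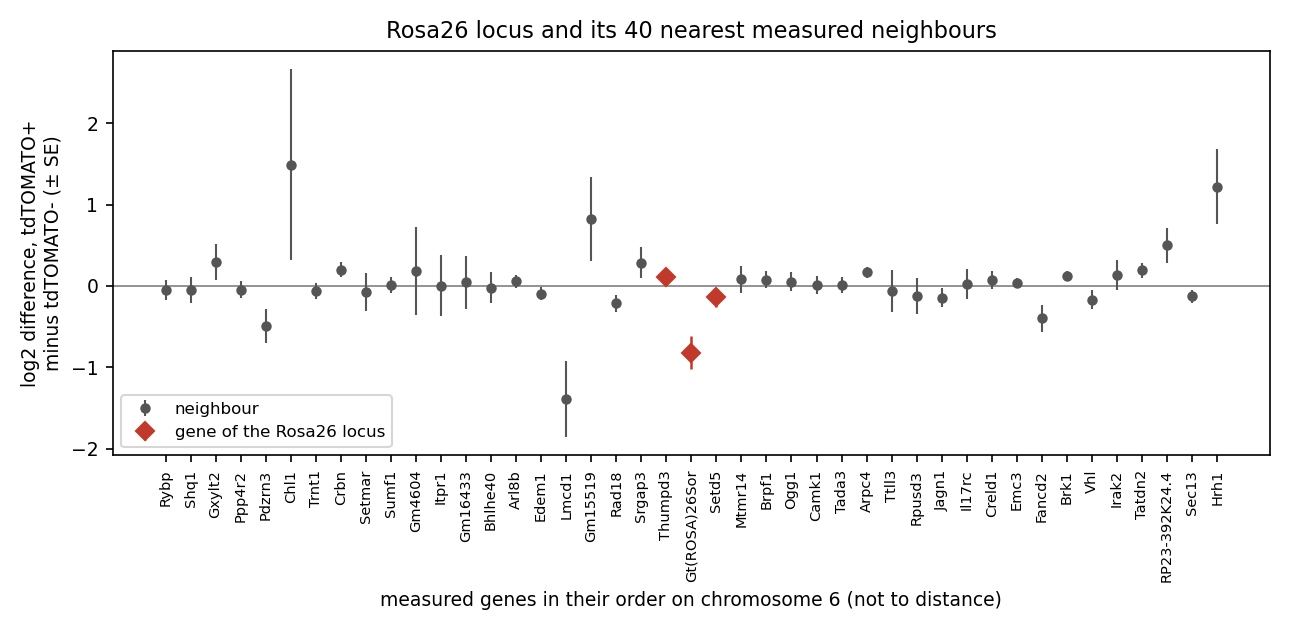
Log2 difference (tdTOMATO+ minus tdTOMATO-, with SE) of the genes of the Rosa26 locus, drawn as diamonds. Circles are the 20 nearest measured genes on each side. All stand in their order along chromosome 6 and not to distance. Gt(ROSA)26Sor lies at -0.82 between Thumpd3 at 0.11 and Setd5 at -0.14, and the neighbours range from -1.39 for Lmcd1 to 1.49 for Chl1, which was at 0 in 1 library, with 29 of 40 under 0.2 in size.

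Genes that work with THUMPD3 and SETD5, or resemble them, gave no call in limma. Of 14 genes for tRNA and rRNA methylation, 0 passed the test in either direction and 0 had an unadjusted p under 0.05 in limma. The shares over all genes were 1.34% and 12.3%. The median log2 difference of the 14 was -0.06. Trmt112, the partner of THUMPD3 in human cells, had 95.9, 115 and 83.4 normalized counts in tdTOMATO+ replicates 1 to 3, against 135, 106 and 108 in tdTOMATO- replicates 1 to 3. These values overlapped. Thumpd1, an adaptor for tRNA acetylation, had the difference -0.19 and Nsun2, a cytosine methyltransferase, -0.14, and neither passed.

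Of 12 genes for complexes that bind SETD5, 0 passed in either direction and 1 had an unadjusted p under 0.05 in limma. The shares over all genes were 1.34% and 12.3%. The median log2 difference of the 12 was -0.0049. Ncor1, a corepressor scaffold, differed by 0.09, the deacetylase Hdac3 by -0.04 and Paf1 by -0.09. Of 32 other SET-domain genes, 0 passed and 2 had an unadjusted p under 0.05 in limma, against 1.34% and 12.3% of all genes. Their median was 0.01. Kmt2e, the closest relative of Setd5, had 3874, 3792 and 4081 normalized counts in tdTOMATO+ replicates 1 to 3, against 3453, 3767 and 4362 in tdTOMATO- replicates 1 to 3, and these overlapped. Setd1b (-0.21) and Smyd5 (-0.21) were the SET-domain genes under an unadjusted p of 0.05.

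Rosa26 is often treated as a housekeeping locus, so 15 genes used as expression references were set beside it. None of them passed the test, against 1.34% of all genes, and 3 had an unadjusted p under 0.05 in limma, against 12.3% of all genes. The median log2 difference was 0.08. The range was -0.32 to 0.42, and 0 of the 15 lay below Gt(ROSA)26Sor. Those 3 were Hprt (0.18), Gusb (0.30) and B2m (0.42).

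Since Gt(ROSA)26Sor is noncoding, it was also set beside 15 measured long noncoding RNAs of a list of 20. None passed and 4 had an unadjusted p under 0.05 in limma, against 1.34% and 12.3% of all genes. The median log2 difference was -0.44, with 13 of 15 differences below 0. These RNAs varied widely between colonies, with a median within-group SD of 0.58 on the log2 scale against 0.31 for Gt(ROSA)26Sor. Meg3, an imprinted RNA, had 266, 2326 and 394 normalized counts in tdTOMATO+ replicates 1 to 3, against 2211, 3951 and 3155 in tdTOMATO- replicates 1 to 3, and these overlapped. Rian and Mirg, which lie in the same imprinted cluster as Meg3, had log2 differences of -2.27 and -2.47. Malat1, an abundant nuclear RNA, differed by -0.03. Of all 239 noncoding genes with a mean of at least 50, 0 passed and 24 had an unadjusted p under 0.05 in limma. The shares over all genes were 1.34% and 12.3%, and the median of the 239 was -0.02. Among those genes 20 were lower without overlap, against 8.33% of all genes, and 9 had a log2 difference below that of Gt(ROSA)26Sor.

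Markers of macrophages and leukocytes moved with the groups. Of 18 macrophage and leukocyte markers, 16 were higher in tdTOMATO+ CFU-Fs in limma and 0 were lower, against 1.2% and 0.143% of all genes. Their median log2 difference was 0.80. Their summed level was 83430 to 91168 in tdTOMATO+ colonies and 48909 to 49148 in tdTOMATO- colonies, with 0 of the 18 at 0 in any library. Cd68, a lysosomal protein of macrophages, had 2927, 2643 and 2919 normalized counts in tdTOMATO+ replicates 1 to 3, against 1371, 1401 and 1330 in tdTOMATO- replicates 1 to 3. It rose by 1.05 on the log2 scale (adjusted p 0.0055, limma). Csf1r, the receptor for CSF1 on macrophages, rose by 0.67, Ptprc, the pan-leukocyte phosphatase, by 0.69, and Lyz2, lysozyme, by 0.84.

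The other markers called were Adgre1, Itgam, C1qa, C1qb, C1qc, Fcer1g, Tyrobp, Mrc1, Cd53, Laptm5, Coro1a and Lcp1, with log2 differences of 0.69 to 1.14. All 18 markers were higher in tdTOMATO+ CFU-Fs without overlap between the groups. The calls changed when single colonies or the variance trend of limma were left out, but the differences stayed positive. Without single colonies, the log2 differences of the 16 called markers ran from 0.615 (Ptprc) to 1.298 (C1qa). In those fits Cd68 ran from 1.023 to 1.096 and C1qa from 0.969 to 1.298. Of all list genes, 17 were called higher with 6 colonies, against 1 (Cd68) without tdTOMATO+ replicate 1, 1 (Cd68) without tdTOMATO+ replicate 2 and 17 without tdTOMATO+ replicate 3. The last 17 were not all the same genes, as C1qa was not called without tdTOMATO+ replicate 3 (adjusted p 0.110, limma). Without tdTOMATO- replicates 1, 2 and 3 there were 16, 2 (Cd68 and Adgre1) and 13. With 6 colonies and no trend, limma called 0 of them, and 25 were higher at an unadjusted p under 0.05. C1qa lost its call when scaled by reference genes (adjusted p 0.058, limma). The part of these cells in the level of Gt(ROSA)26Sor was not tested.

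Of 14 marrow stroma genes, 0 passed in either direction and 2 had an unadjusted p under 0.05 in limma. The shares over all genes were 1.34% and 12.3%. Those 2 were Lepr, of log2 difference 2.59 (adjusted p 0.065, limma), and Col3a1, of -0.56. Lepr had 408, 354 and 1132 normalized counts in tdTOMATO+ replicates 1 to 3, against 97.3, 69.4 and 108 in tdTOMATO- replicates 1 to 3. The median log2 difference of the 14 was -0.07, with a range of -2.06 to 2.59. The summed level was 1126518 to 1375860 in tdTOMATO+ colonies and 1332086 to 1500205 in tdTOMATO- colonies, with 0 of the 14 at 0 in any library. Of 7 endothelial markers, 0 passed and 0 had an unadjusted p under 0.05 in limma, against 1.34% and 12.3% of all genes. Their median was 0.25. Of 11 hypertrophic chondrocyte genes, 1 was higher, 0 were lower and 5 had an unadjusted p under 0.05 in limma, against 1.34% of all genes called and 12.3% at that unadjusted p. The median was -0.16. Besides the gene called, the 5 held Ibsp (log2 difference 2.16), Alpl (0.50) and Runx2 (0.44), which were higher, and Sox9 (-0.77), which was lower. None of these passed, and the lowest adjusted p among them was 0.076 (Ibsp, limma). The summed level of the 11 genes was 126043 to 198543 in tdTOMATO+ colonies and 116939 to 184002 in tdTOMATO- colonies. Col2a1 alone ran from 18940 to 129948 in tdTOMATO+ colonies and from 65479 to 136159 in tdTOMATO- colonies. The gene called was Mmp13, a collagenase of hypertrophic cartilage and osteoblasts, at 18036, 12347 and 20535 normalized counts in tdTOMATO+ replicates 1 to 3, against 3844, 6181 and 5988 in tdTOMATO- replicates 1 to 3. Its log2 difference was 1.67 (adjusted p 0.045, limma), and the call was lost whichever single colony was left out. The adjusted p for Mmp13 was 0.054 to 0.14 in those fits and 0.076 when scaled by reference genes.

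Col10a1, whose regulatory sequence drives Cre, overlapped between the groups. It had 634, 521 and 529 normalized counts in tdTOMATO+ replicates 1 to 3, against 597, 1178 and 799 in tdTOMATO- replicates 1 to 3. The log2 difference was -0.56 (adjusted p 0.425, limma, n = 3 each), and tdTOMATO+ replicate 1 lay above tdTOMATO- replicate 1. None of the 14735 measured genes is named for tdTomato or Cre, so these transcripts were not analysed here.

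**Figure D4:**
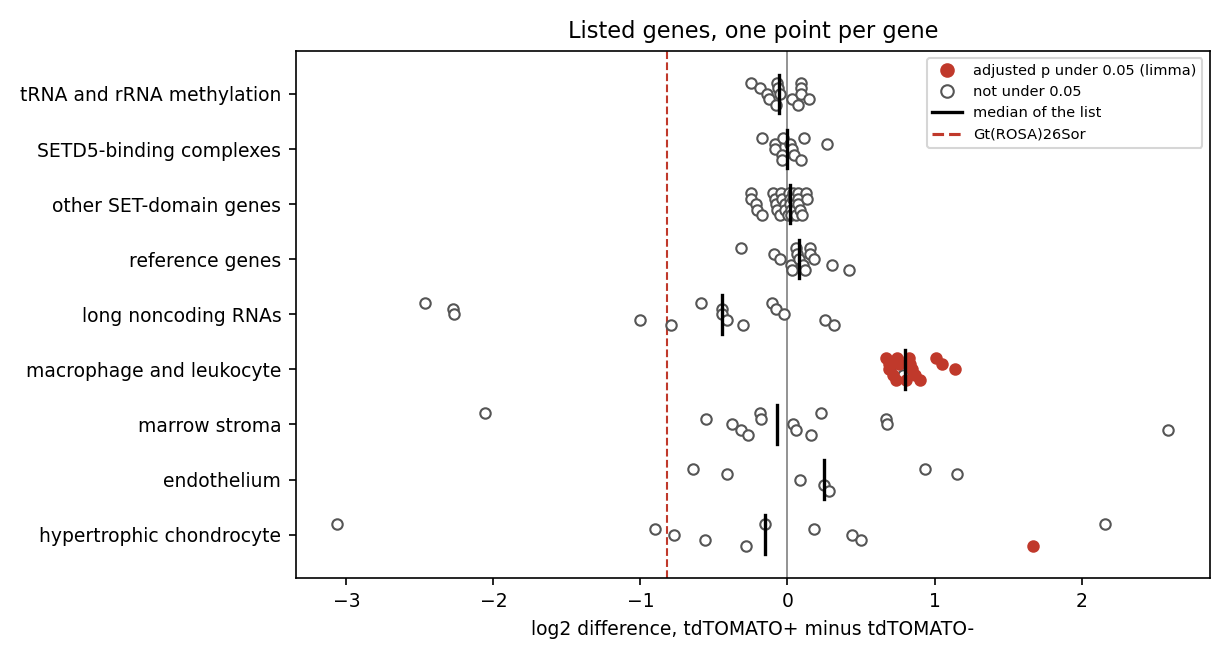
Log2 difference (tdTOMATO+ minus tdTOMATO-) of each listed gene, 1 point per gene, with black bars for list medians, filled points for an adjusted p under 0.05 in limma and a dashed line at -0.82 for Gt(ROSA)26Sor. The 18 macrophage and leukocyte markers sit between 0.67 and 1.14, the SET-domain, SETD5-binding and methylation genes gather within 0.27 of 0, and the long noncoding RNAs spread from -2.47 to 0.32.

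The genes whose pattern over the 6 colonies was most like that of each gene were named by Pearson's r of log2 values among 11671 genes with a mean of at least 50. The 6 points share library and depth between genes, and the values are a description. For Gt(ROSA)26Sor they were Vangl2, a planar cell polarity protein (r = 0.987), 5033430I15Rik, 2010015L04Rik, Gnas, which encodes the stimulatory G protein alpha subunit, and Ncdn. The log2 differences of these 5 genes were -0.25, -0.23, -0.71, -0.10 and -0.14. For Thumpd3 they were Tpp1, a lysosomal peptidase (r = 0.984), Hsbp1, Cd63, Phf5a and Cox6b1. For Setd5 they were Stat2, a transducer of interferon signals (r = 0.983), Lyst, Cbx5, Gm21092 and Ptbp1. The lists of the 3 genes had no gene in common.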

How the data were processed

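The 6 colonies (3 tdTOMATO+, 3 tdTOMATO-) gave single-end reads of 50 bp. For trimming the authors used TrimGalore, with STAR on GRCm38 for unique alignments and HTSeq for counting. The authors required 10 reads per gene in some library and took size factors from DESeq2. Versions are not given in the sources used here. The deposited signal is the normalized count. Each value was a whole multiple of a library step (100%, tolerance 0.001), which gave the reads; in replicate 3 of each group the step lies close to 1, so its reads are less certain. The authors' fold change and p-value columns were not used. limma 3.58.1 (R 4.3.3, trend and robust, no block) was run on log2(normalized count + 1), two-sided, with Benjamini-Hochberg adjustment over 14735 genes, and tested on simulated data. The 3 genes and all lists were chosen with earlier results of these data known. Gene IDs (14585 matched) and positions come from GENCODE M21, a later annotation of the same build. Text names the 3 genes, 5 nearest neighbours per side, neighbours and list genes called, Col10a1 and 5 like genes each. Other named genes were chosen after their values were seen.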

Additional observations from a re-analysis of the deposited data

How the results depend on the processing

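The difference in Gt(ROSA)26Sor stayed negative under both other pseudocounts, the 4 other scalings and each omission of a colony, from -1.04 (without tdTOMATO+ replicate 2) to -0.67 when single colonies were left out and from -0.90 to -0.78 otherwise. Setd5 ran from -0.21 to -0.04 and Thumpd3 from 0.09 to 0.17 without single colonies. Thumpd3 was 0.032 when scaled by reference genes. Gt(ROSA)26Sor against its neighbours ran from -1.04 to -0.61. Over the whole table, limma called 177 genes higher and 21 lower. Leaving out tdTOMATO+ replicates 1, 2 and 3 gave 9, 1 and 103 higher and 8, 0 and 10 lower. Leaving out tdTOMATO- replicates 1, 2 and 3 gave 178, 15 and 97 higher and 44, 1 and 14 lower. Scaling by reference genes gave 101 higher and 30 lower, and limma without its trend gave 1 higher and 0 lower (1075 and 647 at an unadjusted p under 0.05). List genes called higher numbered 17, 1 to 17 without single colonies and 0 without the trend (25 at an unadjusted p under 0.05), and 0 to 1 were lower, the 1 being Pdgfra without tdTOMATO- replicate 1. Neighbours called stayed at 0 in every alternative, with 0 to 7 at an unadjusted p under 0.05 in limma. Scalings by upper quartile, by total without its most abundant gene and by reference genes, limma without its trend and the 1000 kb limit were chosen after seeing the data. Count models on recovered reads, with their scaling, were planned and not run, because the steps of replicate 3 in each group lie so close to 1 that the recovery of its reads rests on small decimals. The numbers of reads printed are from replicates 1 and 2. Whether the numbers shared by the groups pair the colonies is not settled here. Same-numbered colonies had r = 0.0897, 0.0241 and 0.182 over 12303 genes, and colonies of different number lay between -0.133 and 0.0678. Of the same-numbered values, 0.0897 and 0.182 lay above that range. With the replicate number as a block, limma called 124 genes higher and 24 lower, and C1qa and Mmp13 lost their calls (adjusted p 0.114 and 0.102). A block cannot move the difference between group means in this design, so it says nothing about the 3 genes of the locus.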
